A study of Canis lupus familiaris with 25 samples.

Results

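Skeletal muscle genes were described in 25 QuantSeq 3′ libraries of canine tumors. They are 52 genes chosen by name, and all 52 were found among the 24532 genes of the deposited count table. By role they fall into 13 fast fiber genes, 10 slow fiber genes, 10 sarcomere genes shared by all fibers, 3 genes of calcium release, 6 of energy supply, 2 developmental myosins, 5 muscle regulators and 3 genes of protein turnover and stress. The samples were archived formalin-fixed, paraffin-embedded (FFPE) tumors of privately owned dogs of mixed breeds and either sex. They comprised 10 hepatoid gland adenomas (HGA, a benign tumor of the perianal glands, dogs aged 8 to 14 years), 11 primary anal sac adenocarcinomas of apocrine gland origin (AGASAC, malignant, dogs aged 8 to 12.5 years) and 4 sublumbal lymph node metastases from the dogs of AGASAC 1 to 4, aged 8 to 10 years. RNA came from whole cross sections after tissue next to the tumor had been removed, and neither healthy tissue nor purified cells were among the samples.

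Skeletal muscle fibers contract when calcium released from internal stores lets myosin heads pull on actin filaments within the sarcomere. Fast and slow fibers use different forms of myosin, troponin and calcium pump, and developing or regenerating fibers use embryonic and perinatal myosin heavy chains before the adult ones. The external anal sphincter, a ring of skeletal muscle, lies against the anal sac, whereas the hepatoid glands lie in the skin around the anus.

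Total counts were 1562347 to 6389555 per sample, so that 3 counts, the most that a count of 0 allows, corresponded to 0.543 to 1.84 CPM, the counts of a gene per 1000000 counts of the library. This limit and all intervals cover counting error only. CPM are scaled with TMM factors, which adjust for differences in composition between libraries, over the 25 samples and were not divided by gene length, since 3′ counting reads each transcript near its end. In bulk RNA, fewer cells of a type and less RNA per cell cannot be told apart. Of the gland genes, 4 of 4 chosen for AGASAC (KRT8, KRT18, KRT19, PIP) were called lower in HGA by edgeR, where 1509 of 12070 genes were. All 5 of 5 chosen for HGA (KRT5, KRT14, KRT79, CIDEA, DHRS2) were called higher there, where 1523 genes were. These genes were chosen with earlier results of these data known, so their directions are no independent check of the tumor types.

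Most skeletal muscle genes had their highest level in primary AGASAC, and many were close to absent from HGA and the metastases. The mean CPM was higher in primary AGASAC than in HGA for 50 of 52 genes, all but CKMT2 and HSPB6, and higher than in the metastases for 49. By pooled CPM, 94.2% of the 52 genes were lower in HGA than in primary AGASAC, and 53.0% of 22105 genes were. In the metastases, against the primary tumors of the same dogs, 91.8% of 49 members and 49.0% of 18797 genes were lower. In HGA 23 genes never exceeded 3 counts and 9 had 0 counts in all 10 tumors. In the metastases these numbers were 32 and 21, and in primary AGASAC 0 and 0. Such numbers depend on the samples per group, 10 HGA, 4 metastases and 11 primary AGASAC, and on depth. Median totals were 2506085 counts in HGA, 3102626 in the metastases and 2950459 in primary AGASAC. The same numbers over all genes were not counted. Summed over the 52 genes, primary AGASAC held 638 ± 541 CPM (SD, n = 11), HGA 154 ± 43.1 (n = 10) and the metastases 189 ± 14.3 (n = 4). This was a small part of each library, between 0.0215 and 0.212% of the counts in primary AGASAC and between 0.00697 and 0.0215% in HGA. TPM3 and HSPB6 made up much of the sum in HGA, with means of 48.1 and 63.6 CPM. In the metastases TPM3, FBXO32, HSPB6 and TRIM63 had means of 79.4, 31.2, 26.4 and 15.1 CPM. The shared sarcomere genes alone summed to 270 ± 312 CPM in primary AGASAC, 12.6 ± 10.1 in HGA and 17.6 ± 5.82 in the metastases.

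**Figure D1:**
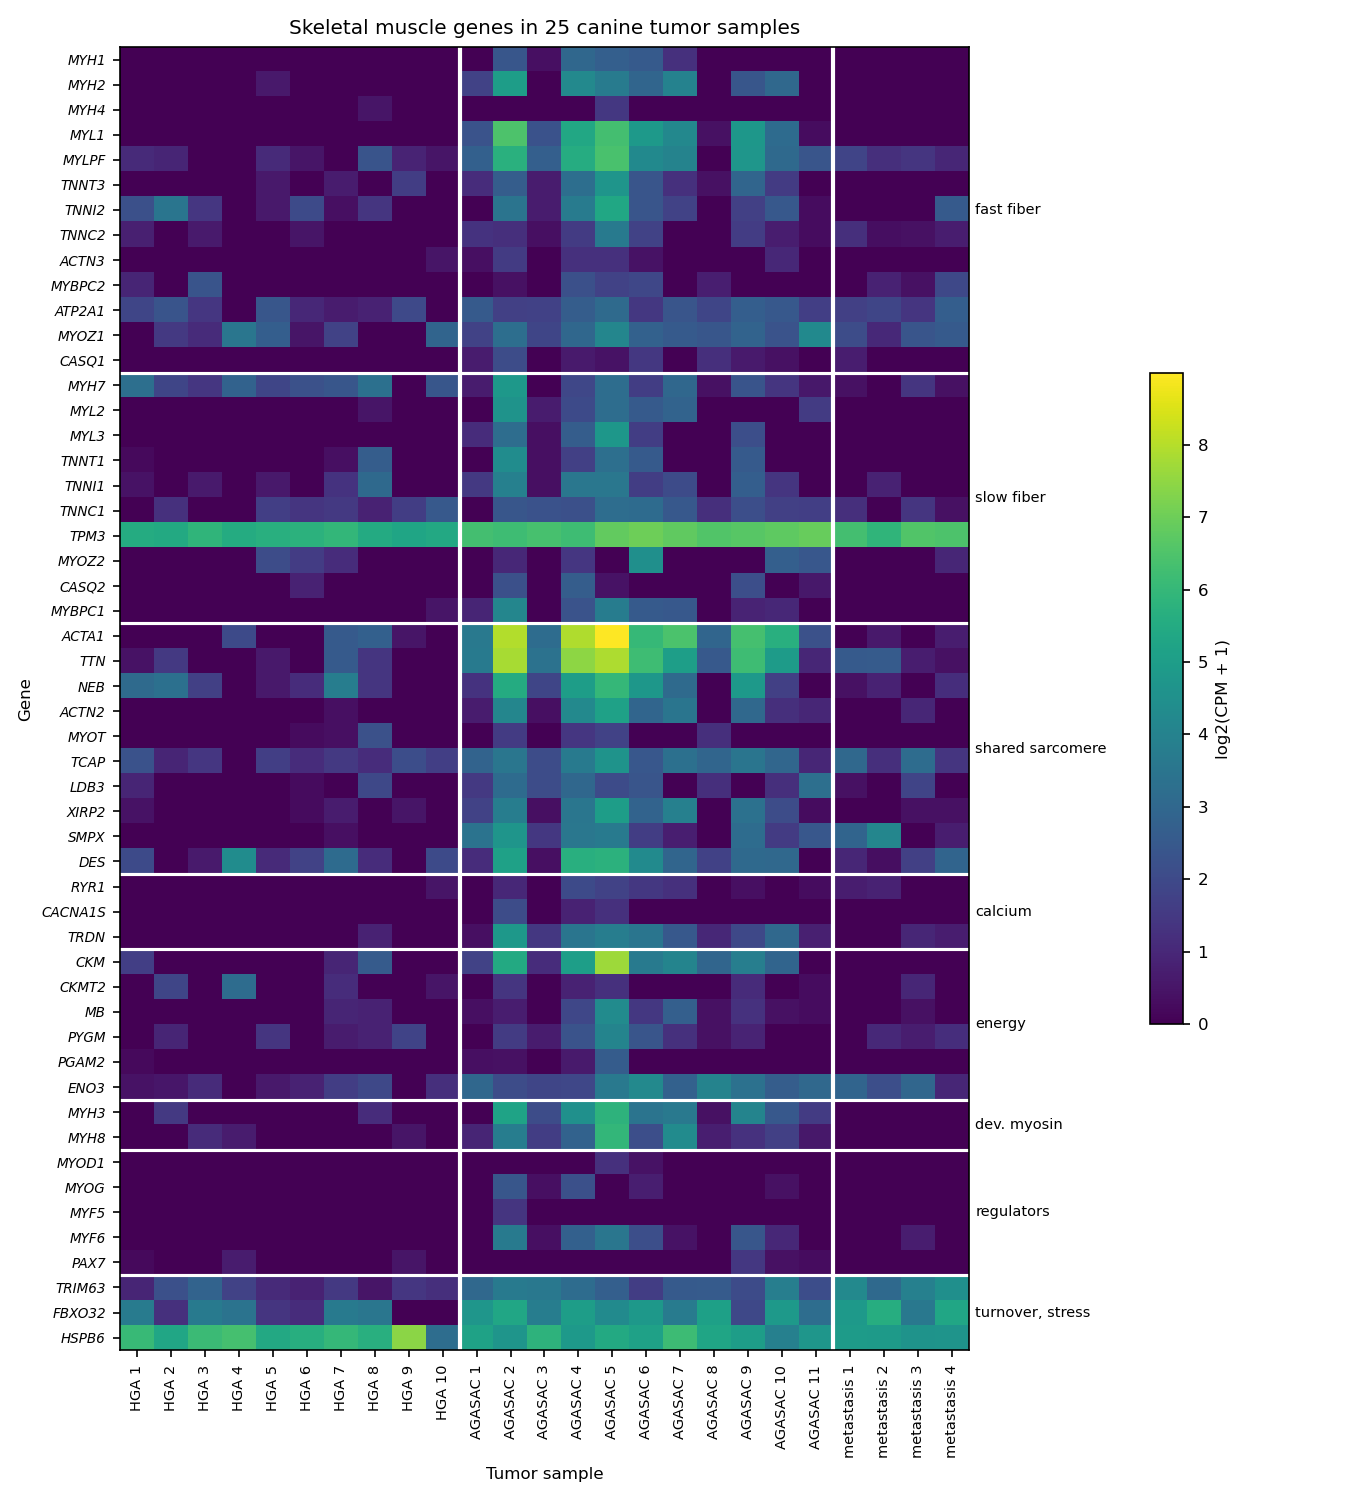
Expression of the 52 skeletal muscle genes (rows, grouped by role) in the 25 samples (columns, with white lines between HGA, primary AGASAC and metastases), as log2(CPM + 1). AGASAC 5 held the highest value of 22 genes and AGASAC 2 that of 15, while TPM3, HSPB6, FBXO32 and TRIM63 were spread over all tumor types.

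The primary tumors differed widely among themselves. AGASAC 5, AGASAC 2 and AGASAC 4 summed to 1921, 1248 and 979 CPM over the 52 genes, with 46, 44 and 44 of them above 3 counts. AGASAC 1, 3, 8 and 11 summed to between 221 and 231 CPM, with 16 to 23 genes above 3 counts. They had 38, 27, 20 and 15 counts of ACTA1. The highest HGA, HGA 9, summed to 227 CPM, of which HSPB6 alone held 171. It had 1 count of ACTA1 and 0 counts of TTN. The libraries of AGASAC 5, 2 and 4 held 2612716, 2937658 and 3163194 counts, within the range of the primary tumors of 2581453 to 4218340. Of the 52 genes, 46 had their highest single value in a primary AGASAC, 4 in an HGA (HSPB6, MYBPC2, CKMT2, MYOT) and 2 in a metastasis (TRIM63, FBXO32). Primary AGASAC made up 11 of the 25 samples, and the share over all genes was not counted.

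**Figure D2:**
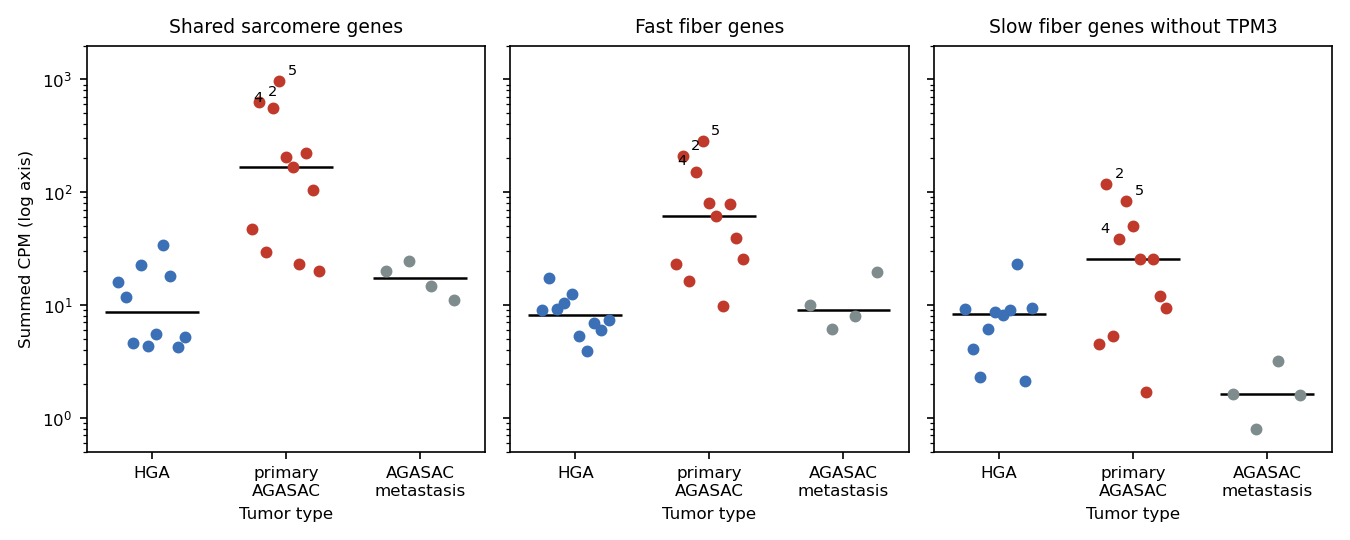
Summed CPM (log axis) of the 10 shared sarcomere genes, the 13 fast fiber genes and the 9 slow fiber genes other than TPM3 in each tumor, with a point per sample and a line at the median of the group. AGASAC 2, 4 and 5 (numbered) are among the highest for the shared and fast genes, and the values of the lowest primary tumors overlap with those of HGA.

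Among the shared sarcomere genes, ACTA1, the actin of the thin filament, was the most abundant. In primary AGASAC it ranged from 3.64 CPM in AGASAC 11 through a median of 63.4 to 508 in AGASAC 5. In HGA it ranged from 0 through a median of 0 to 5.75 CPM in HGA 8, and 6 of 10 HGA had 0 counts. Thus 10 of 11 primary tumors lay above every HGA, and AGASAC 11 lay within their range. TTN, the giant spring protein of the sarcomere, ranged from 0.972 through 32.2 to 238 CPM in primary AGASAC and from 0 through 0.181 to 4.86 in HGA. Here 9 of 11 primary tumors exceeded every HGA.

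In the “HGA versus AGASAC” comparison, 8 of the 52 genes passed the filter on low counts and 4 of these were “down” in HGA, where 12.5% of all 12070 genes tested were “down”. None was “up”. A gene was called by edgeR (quasi-likelihood test) where its p, adjusted after Benjamini and Yekutieli over all genes tested, did not exceed 0.05 and its log2FC was 1 or more in size. ACTA1 had a log2FC of −6.38 (SE 1.03, edgeR adjusted p = 0.000205) and TTN a log2FC of −6.28 (SE 0.96, edgeR adjusted p = 0.0001). The others were MYLPF and TRIM63. The filter asked for expression in as many tumors as the smaller group holds and therefore left out genes that were high in a few primary tumors. With no filter 21 of 52 genes were “down”, where 8.39% of 24332 genes were, and with at least 10 counts in 3 tumors 20 of 38, where 12.9% of 15208 were. Members could pass the latter filter through primary AGASAC alone, as MYL1 and MYH3 did, and ACTA1 and TTN passed the main filter mostly through it. Such passing favors “down” calls, so the shares among filtered members are descriptive and no independent support. DESeq2 called 22 of 52 “down”, where 9.36% of 24332 genes were. No setting called any of them “up”. By role, the 21 called with no filter were 5 of 13 fast genes, 4 of 10 slow genes, 6 of 10 shared sarcomere genes, 1 of 3 calcium release genes, 2 of 6 energy genes, both developmental myosins and 1 of 5 regulators, MYF6, but 0 of 3 genes of turnover and stress. Over the 52 genes, the median log2 ratio of pooled CPM in HGA to that in primary AGASAC was −2.97, with groups at 0 set to 3 counts, and over 22105 genes it was −0.08.

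The RNA extraction batches recorded by the study held both tumor types in 3 cases with at least 2 tumors of each. Within batch 5, ACTA1 had a log2FC of −4.21 (SE 1.05) and TTN of −5.88 (SE 1.24). Within batch 8 these were −6.78 (SE 2.05) and −6.08 (SE 1.82). Within batch 6 all 3 HGA had 0 counts of ACTA1, and TTN had a log2FC of −7.22 (SE 0.70). All 3 batches gave the same direction for both genes. In batch 5 edgeR called 0 of 12 members tested “down”, where 0.826% of 12356 genes were. In batch 8 it called 0 of 34, where 0.858% of 13758 genes were, and in batch 6 it called 4 of 26, where 2.2% of 13159 genes were.

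The remaining shared sarcomere genes showed the same high tumors in most cases. NEB, the ruler of the thin filament, ranged from 0 through 7.69 to 62.8 CPM in primary AGASAC and from 0 through 1.43 to 13.1 in HGA, so the types overlapped. DES, the intermediate filament of muscle, which smooth muscle also makes, ranged from 0 through 7.18 to 54.5 CPM in primary AGASAC and from 0 through 1.84 to 19.7 in HGA. ACTN2 of the Z-disc had a single count in the 10 HGA together and a mean of 8.68 ± 10.7 CPM (SD, n = 11) in primary AGASAC, a ratio of 236 with an exact 95% counting interval of 42.0 to 9340. A few of these genes were still measured in the metastases. SMPX, a small protein of striated muscle, held 6.49, 16.4, 0 and 0.639 CPM in metastases 1 to 4, and TCAP, which caps titin at the Z-disc, 7.14, 1.33, 8.04 and 1.60 CPM, above 3 counts in all 4.

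Fast fiber genes summed to between 9.72 and 286 CPM in primary AGASAC and between 3.95 and 17.2 in HGA. MYL1, an essential light chain of fast myosin, was one of 2 members whose tumors did not overlap between the types, where 2.59% of 24332 genes were lower in every HGA than in every primary AGASAC. It had 0 counts in 10 of 10 HGA and ranged from 0.243 CPM in AGASAC 11 through 17.1 to 88.6 in AGASAC 2. Pooled over tumors it was at least 242-fold higher in primary AGASAC, counted against 3 counts over all HGA. In AGASAC 8 and 11, however, it rested on a single count each.

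MYLPF, the regulatory light chain of fast fibers, ranged from 0 CPM in AGASAC 8 through 15.4 to 83.3 in AGASAC 5, and from 0 through 0.639 to 4.11 in HGA. It was “down” in HGA with a log2FC of −4.66 (SE 0.81, edgeR adjusted p = 0.000503). TNNI2, the inhibitory subunit of fast troponin, overlapped between the types: AGASAC 5 held 39.6 CPM, HGA 2 held 10.4, and the medians were 2.45 and 1.09 CPM. MYOZ1, which anchors calcineurin at the Z-disc of fast fibers, was highest in AGASAC 11 with 18.5 CPM, the tumor with the least ACTA1, and its log2FC of −1.44 (SE 0.67) had an edgeR adjusted p of 0.82. ATP2A1, the fast calcium pump, lay between 1.72 and 7.64 CPM in all primary tumors and reached 4.32 in HGA 5.

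TPM3 was the most abundant gene of the slow fiber list and the other member without overlap. Its slow muscle product is a tropomyosin, and other products of the gene are made in most cells. It ranged from 71.9 through 100.4 to 128 CPM in primary AGASAC, from 38.2 through 45.1 to 60.7 in HGA and from 57.6 to 92.6 in the metastases. The log2FC of −0.99 (SE 0.14, edgeR adjusted p = 2.3e-05) fell short of the limit of 1. With DESeq2, at −1.02, and with no filter, at −1.05, TPM3 was called. It took most of the slow fiber sum, which was 132 CPM in primary AGASAC and 56.3 in HGA with TPM3, and 34.1 and 8.22 without it.

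The other 9 slow fiber genes together were highest in AGASAC 2, with 118 CPM, and second in AGASAC 5, with 84.0. MYH7, the slow myosin heavy chain, reached 26.8 CPM in AGASAC 2 against 8.33 in AGASAC 5 and 2.78 in AGASAC 4. It was also present in HGA, with a median of 3.96 CPM and more than 3 counts in 8 of 10 tumors, and the median of primary AGASAC was 2.07. TNNI1, the inhibitory subunit of slow troponin, ranged from 0 through 2.07 to 14.1 CPM in primary AGASAC. In HGA its median was 0.181 CPM and HGA 8 alone held 7.39. TNNC1, a troponin subunit shared by slow fibers and heart, ranged from 0 through 3.61 to 8.33 CPM in primary AGASAC and from 0 through 1.49 to 4.73 in HGA.

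Fast and slow genes could be set against each other within a tumor. Of all counts on fast fiber genes and slow fiber genes other than TPM3, the fast genes took 72.6% (95% Wilson interval 71.2 to 73.9) over the 11 primary tumors. The share was 77.3% (74.7 to 79.7) in AGASAC 5 and 79.8% (76.6 to 82.6) in AGASAC 4, but 63.8% (60.7 to 66.7) in AGASAC 2 and 61.7% (56.8 to 66.5) in AGASAC 6. Among the troponins alone the fast share was 73.3% (68.1 to 78.0) in AGASAC 5, 57.7% (49.5 to 65.6) in AGASAC 4 and 30.5% (24.1 to 37.9) in AGASAC 2. The intervals of these 3 tumors do not overlap. In this measure AGASAC 2 was the slowest and AGASAC 5 the fastest of the 3 tumors with the most muscle RNA.

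Among the heavy chains MYH3, the embryonic form, had the most counts over the primary tumors. It ranged from 0 through 9.99 to 55.5 CPM in primary AGASAC and from 0 through 0 to 1.81 in HGA. MYH8, the perinatal form, ranged from 0.486 through 2.29 to 60.7 CPM in primary AGASAC and from 0 through 0 to 1.14 in HGA, and both had 0 counts in 4 of 4 metastases. Of 1372 counts on 6 sarcomeric heavy chain genes in the 11 primary tumors, MYH3 and MYH8 took 60.3% (95% Wilson interval 57.7 to 62.9), the fast genes MYH1, MYH2 and MYH4 27.6% (25.3 to 29.98) and MYH7 12.1% (10.5 to 13.9). AGASAC 5 provided 416 of these counts, and its developmental share was 80.5% (76.5 to 84.0). In AGASAC 2 the share was 44.4% (39.2 to 49.7) and in AGASAC 4 50.3% (43.4 to 57.1). Without AGASAC 5, an alternative chosen after seeing the data, the developmental share was 51.6% (48.4 to 54.7) of 956 counts and the fast share 33.6% (30.7 to 36.6), and MYH8 then had 153 counts against 264 of the fast gene MYH2, in place of 328 and 300. In AGASAC 1, 8 of 13 counts were on fast genes and 3 on developmental ones. These genes are close relatives that neighbour each other on the chromosome, apart from MYH7, and reads mapping to several places were split evenly. The strand setting of the counting is not given either, so overlapping genes there could share reads. The division among the heavy chain genes is therefore uncertain.

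**Figure D3:**
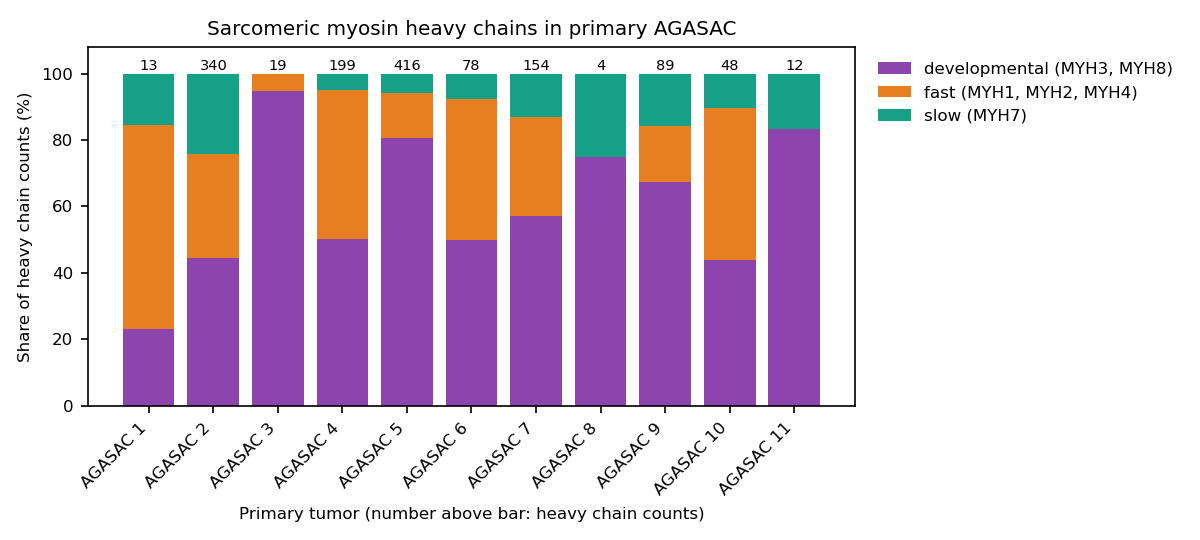
Share of the sarcomeric myosin heavy chain counts (%) that fell on developmental, fast and slow genes in each of the 11 primary AGASAC, with the number of counts above each bar. AGASAC 5 was 80.5% developmental over 416 counts, and AGASAC 1, 3, 8 and 11 rest on 4 to 19 counts each.

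CKM, the creatine kinase that buffers ATP in muscle, led the energy genes. It ranged from 0 CPM in AGASAC 11 through 11.7 to 203 in AGASAC 5, and from 0 through 0 to 4.93 in HGA. AGASAC 5 alone carried most of it, as the next tumor, AGASAC 2, held 43.1 CPM. MB, the oxygen store myoglobin, reached 19.1 CPM in AGASAC 5 and 0.654 in AGASAC 2, the tumor with the highest sum of slow fiber genes other than TPM3. PYGM, the glycogen phosphorylase of muscle, had a median of 0.86 CPM in primary AGASAC and 0.304 in HGA, with 15.6 in AGASAC 5. ENO3, the muscle enolase, followed another order and was highest in AGASAC 6 with 17.9 CPM and AGASAC 8 with 15.4, and it lay between 0.958 and 6.75 in the metastases.

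Of the genes of calcium release, TRDN, which ties the release channel to its calcium store, was the best measured. It ranged from 0.301 through 4.54 to 26.5 CPM in primary AGASAC, and of the 10 HGA only HGA 8 had any counts. RYR1, the release channel, reached 3.06 CPM in AGASAC 4 and 0.43 in HGA 10. CACNA1S, the voltage sensor, reached 3.27 CPM in AGASAC 2 and had 0 counts in every HGA and metastasis.

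The muscle regulators were scarce. MYF6, a transcription factor of mature fibers, had 37, 21 and 30 counts in AGASAC 2, 4 and 5 and 0 counts in all HGA, and was at least 31.2-fold higher in primary AGASAC by pooled counts. MYOG, which drives fusion and differentiation, had 13 counts in AGASAC 2 and in AGASAC 4 but 0 in AGASAC 5, which had the most developmental myosin. MYOD1 reached 4 counts in AGASAC 5, MYF5 5 counts in AGASAC 2 and PAX7, the marker of satellite cells, 6 counts in AGASAC 9. Outside these tumors MYOD1, MYF5 and PAX7 had at most 1 count, so differences in them were not detectable at this depth.

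The 3 genes of turnover and stress were found in all tumor types. TRIM63, a ubiquitin ligase that breaks down sarcomere proteins, ranged from 2.07 through 5.55 to 13.4 CPM in primary AGASAC and from 0.411 through 1.49 to 6.27 in HGA. It was “down” in HGA with a log2FC of −1.77 (SE 0.44, edgeR adjusted p = 0.019). With no filter the adjusted p was 0.054 and with the extraction batch as a term 0.098. The metastases held 17.8, 7.43, 14.2 and 21.1 CPM, and 3 of 4 lay above every primary tumor although ACTA1 was near 0 in them. FBXO32, its partner ligase in muscle wasting, had medians of 25.6 CPM in primary AGASAC and 5.73 in HGA and a log2FC of −1.79 (SE 0.59, edgeR adjusted p = 0.148). HSPB6, a small heat shock protein of all muscle types, had a log2FC of 0.85 (SE 0.34, edgeR adjusted p = 0.415), with medians of 56.1 CPM in HGA and 34.1 in primary AGASAC.

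Each of the 4 metastases had a primary tumor from its own dog, AGASAC 1 to 4, which also took part in the comparison with HGA. The pairs of dogs 1 to 3 were extracted in 1 batch each. ACTA1 measured 11.5, 249, 8.01 and 239 CPM in AGASAC 1 to 4 and 0, 0.531, 0 and 0.639 CPM in metastases 1 to 4. TTN measured 12.1, 223, 9.49 and 176 CPM in the primary tumors and 4.87, 5.04, 0.643 and 0.319 in the metastases. MYL1 measured 3.92, 88.6, 3.85 and 40.6 CPM in the primary tumors and had 0 counts in the metastases, which made it at least 145-fold higher in the primary tumors. These genes were lower in the metastasis in 4 of 4 dogs, and so were MYLPF, TNNT3, MYL3, TNNI1, NEB, LDB3, SMPX, TRDN, CKM and MYH8. This made 13 of the 49 members with counts in these 8 samples, where 3.85% of 22156 genes were lower in 4 of 4 dogs. In dog 3 MYL3 and TNNI1 rested on 1 count and TNNT3 on 2 counts in the primary tumor against 0 in the metastasis. Dogs 2 and 4 had high values in the primary tumor and dogs 1 and 3 low ones.

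With edgeR, in a fit that left out the pairing by dog, none of the 12 members tested was called between metastases and primary tumors. Of all 12629 genes 0.0% were called. An unadjusted p below 0.05 was found for 145 of the 12629 genes and for 4 of the 12 members, ACTA1, TTN, MYL1 and MYLPF. ACTA1 had a log2FC of −8.55 (SE 1.58) with an unadjusted p of 0.000415 and an adjusted p of 1. With the dog as a block, 491 genes and 4 of the 12 members had an unadjusted p below 0.05. In that fit ACTA1 was the only gene called of all 12629 (log2FC −8.59, SE 0.30, edgeR adjusted p = 0.00104). DESeq2 called 4 members “down” in the metastases, namely ACTA1, CKM, MYL1 and MYLPF, among 5 genes in all. In the fit without the dog, TRIM63 had a log2FC of 0.65 (SE 0.36) in the metastases and FBXO32 of 0.21 (SE 0.46), both with an edgeR adjusted p of 1. B cell markers, measured as the metastases lay in lymph nodes, summed to 21.2 to 41.9 CPM there, with 5 to 6 of 6 genes above 3 counts, and to 13.1 to 41.3 CPM in primary AGASAC, with 1 to 6 of 6. Their part in these differences was not tested.

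**Figure D4:**
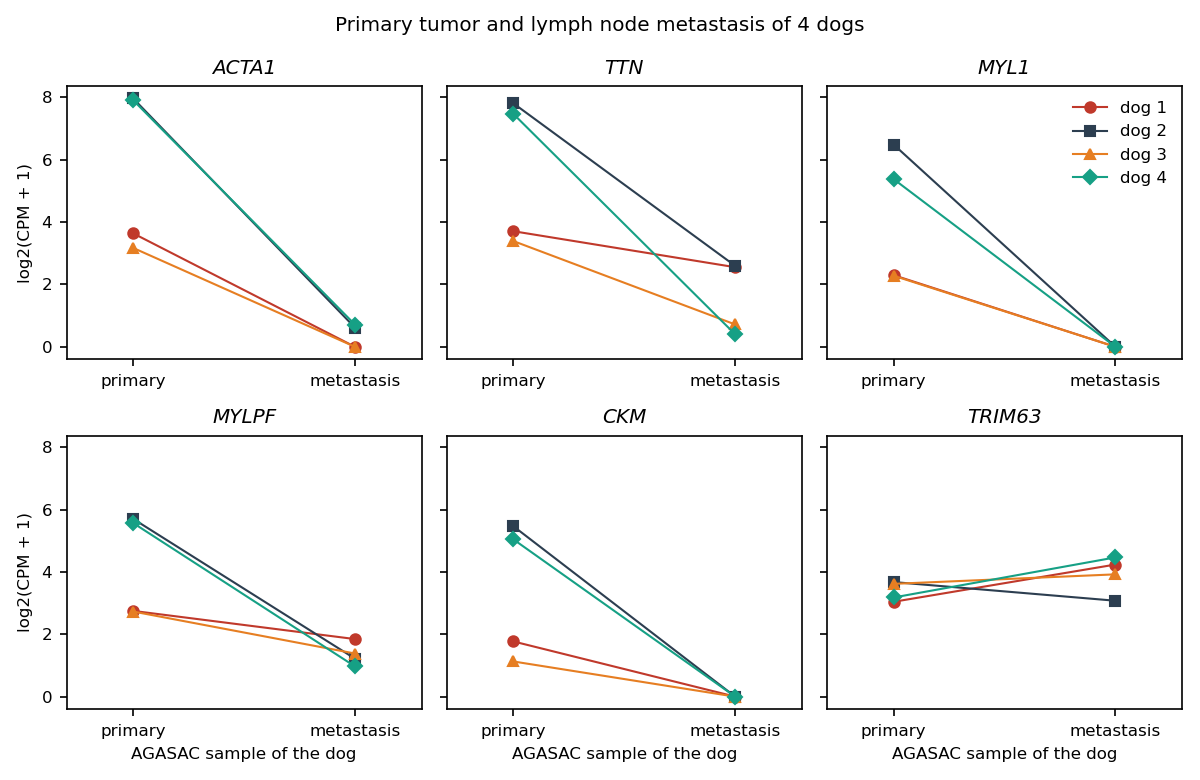
ACTA1, TTN, MYL1, MYLPF, CKM and TRIM63 as log2(CPM + 1) in the primary AGASAC and the lymph node metastasis of dogs 1 to 4, each dog joined by a line. The first 5 genes were lower in the metastasis of every dog, with the higher primary values in dogs 2 and 4, and TRIM63 was higher in the metastasis in 3 of 4 dogs.

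Within the 11 primary tumors, the order of 25 members resembled that of ACTA1, although no relation passed the adjustment in both measures. Across tumors, log2(CPM + 1) of ACTA1 was correlated with that of 16011 genes above 3 counts in at least 3 tumors, and with DV200, total counts and age, 16014 relations in all. Both Pearson's r and Spearman's rho reached 0.7 in 25 of 44 members compared, where 0.893% of the 16011 genes did. They were 6 of 12 fast fiber genes, 5 of 10 slow fiber genes, 6 of 9 shared sarcomere genes, 2 of 2 genes of calcium release, 3 of 5 energy genes, both developmental myosins, the regulator MYF6 and 0 of 3 genes of turnover and stress. In these 25, r was 0.745 to 0.968, and 0.706 to 0.970 without AGASAC 8 and 11, the tumors farthest from the median of ACTA1. TTN stood first with an r of 0.968 and a rho of 0.964 (permutation p = 2e-05 and 4e-05, adjusted p = 0.064 and 0.128). After Benjamini-Hochberg adjustment over the 16014 relations no gene passed 0.05 in both measures. The 100000 resamples allow no permutation p below 1e-05, which XIRP2 reached in both measures (adjusted p = 0.064 and 0.080). The number of resamples therefore limits what could pass. An unadjusted two-sided permutation p below 0.05 in both measures was found for 323 genes. The remaining 7 members were too sparse to compare. Extraction batches held at most 3 primary tumors, too few for a value within a batch.

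**Figure D5:**
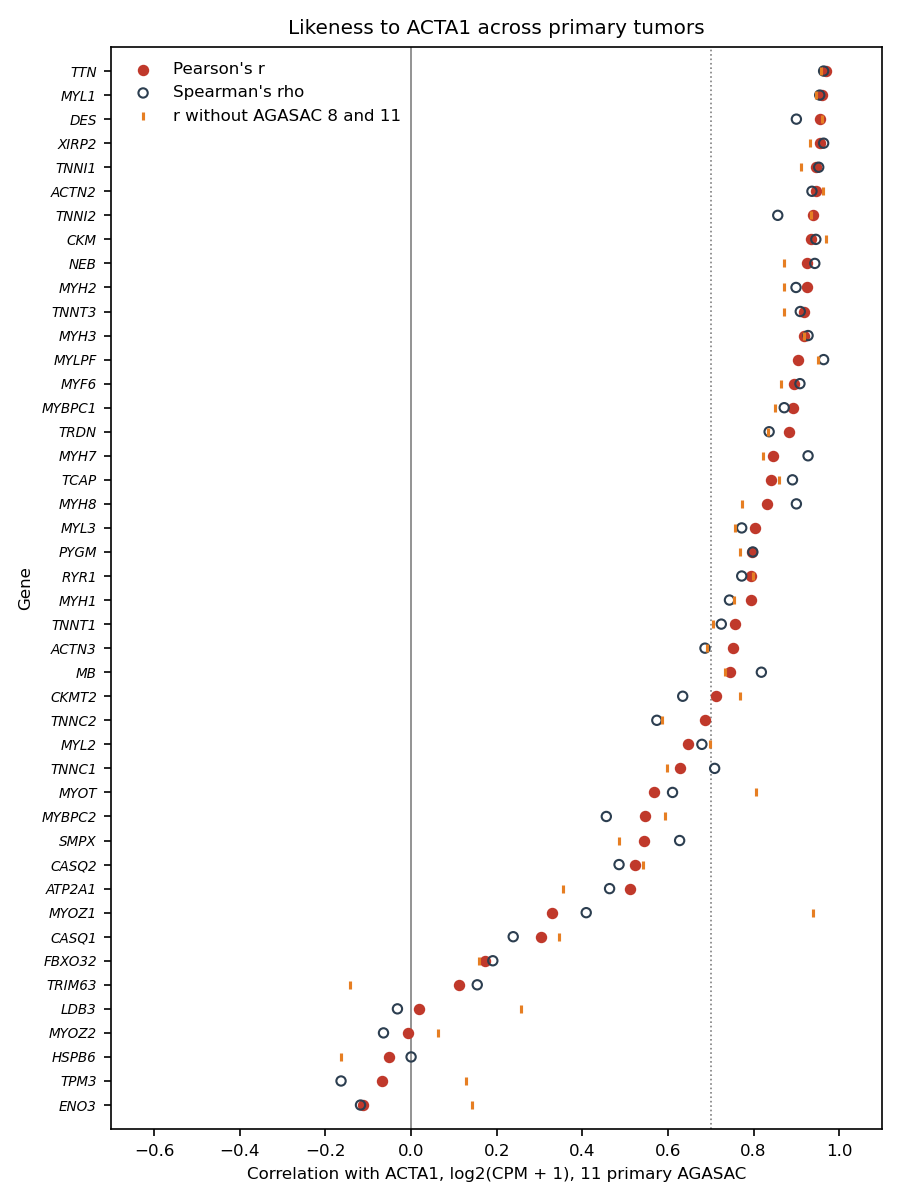
Pearson's r, Spearman's rho and r without AGASAC 8 and 11 between ACTA1 and 44 skeletal muscle genes over the 11 primary AGASAC, on log2(CPM + 1). The dotted line marks 0.7, which 25 genes reached in both measures, while ENO3, TPM3, HSPB6 and MYOZ2 lay near or below 0.

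Fast, slow and developmental genes were all among the 25. MYL1 had an r of 0.960 and a rho of 0.955, TNNI1 0.947 and 0.952, MYH3 0.917 and 0.927, and MYF6 0.893 and 0.908, with unadjusted permutation p of at most 0.00032. Low values were found for TPM3 (r −0.07, rho −0.16, permutation p = 0.842 and 0.632), ENO3 (r −0.11, rho −0.12, permutation p = 0.732 and 0.733), TRIM63 (r 0.11, rho 0.15, permutation p = 0.739 and 0.653) and FBXO32 (r 0.17, rho 0.19, permutation p = 0.625 and 0.579). MYOZ1 had an r of 0.33 and a rho of 0.41 (permutation p = 0.32 and 0.214), and its r became 0.94 without AGASAC 8 and 11, so that the low value rests on those 2 tumors. Of the 30 genes most like ACTA1 by the mean of r and rho, 18 were members. Another 6 belonged to a list of 48 other skeletal muscle genes, led by ANKRD1, a stress-induced protein of the sarcomere (r 0.952, rho 0.943), and SLN, the calcium pump inhibitor sarcolipin (r 0.934, rho 0.943). The rest of the 30 were RGS18 (r 0.938, rho 0.927), TPM2, NFKB1 (r 0.843, rho 0.964), TNNT2, FLNC and HAUS2, which were on neither list. Like ANKRD1 and SLN, they were named after their values were seen.

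Genes of other muscle types were measured beside these. None of 10 smooth muscle genes reached 0.7 in both measures: MYH11, the smooth muscle heavy chain, had an r of 0.644 and a rho of 0.691 (permutation p = 0.0317 and 0.0228), and ACTA2 an r of 0.247 and a rho of 0.209 (permutation p = 0.492 and 0.537). The smooth muscle genes summed to 357 ± 192 CPM (SD, n = 11) in primary AGASAC and 380 ± 98.2 (n = 10) in HGA, and these close sums held opposite members. All 10 passed the filter, 1 was “down” and 1 “up”. SYNPO2, an actin-binding protein, measured 4.67 ± 2.69 CPM in HGA and 99.6 ± 162 in primary AGASAC, with 510 in AGASAC 8 (log2FC −4.34, SE 1.06, edgeR adjusted p = 0.0171). MYLK, the kinase of the smooth muscle light chain, measured 188 ± 75.0 CPM in HGA and 22.3 ± 9.30 in primary AGASAC, without overlap (log2FC 3.1, SE 0.26, edgeR adjusted p = 1.73e-08). Of 10 heart genes 8 were found, and MYBPC3 and GATA4 had 0 counts in all primary tumors and NKX2-5 a single count. The others were present at low counts. ACTC1, which immature skeletal muscle also makes, had 169 counts in primary AGASAC and reached 13.3 CPM in AGASAC 4, with an r of 0.874 and a rho of 0.855 (permutation p = 0.00082 and 0.00134). TNNT2, the cardiac form of troponin T and also made by immature skeletal muscle, had 41 counts and took place 25 among the genes most like ACTA1 (r 0.897, rho 0.865, permutation p = 0.00059 and 0.00125). TNNI3, the cardiac inhibitory troponin, had 49 counts and exceeded 3 counts in 7 of 11 primary tumors (r 0.562, rho 0.532, permutation p = 0.077 and 0.098). MYL7, the atrial light chain, had 37 counts (r −0.03, rho −0.10, permutation p = 0.926 and 0.773), and MYH6 had 10 counts in primary AGASAC and 31 in HGA.

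Of 6 adipocyte genes 4 passed the filter, 3 of them “up” and 1 “down” in HGA. CIDEC, a protein of the lipid droplet, measured 399 ± 340 CPM (SD, n = 10) in HGA and 0.569 ± 0.847 (n = 11) in primary AGASAC (log2FC 9.41, SE 0.68), and FABP4 and LIPE had log2FC of 3.92 (SE 0.49) and 1.90 (SE 0.32). ADIPOQ, the hormone adiponectin of fat cells, was “down” like the muscle genes and measured 5.41 ± 8.47 CPM in HGA and 94.0 ± 129 in primary AGASAC (log2FC −4.04, SE 0.98, edgeR adjusted p = 0.0155), with its highest value in AGASAC 11, the tumor with the least ACTA1. Nerve genes, of which 0 of 6 passed the filter, summed to 1.73 ± 1.77 CPM in HGA and 4.99 ± 5.08 in primary AGASAC. The part of the smooth muscle, adipocyte and nerve genes in the differences between the types was not tested. DV200, the share of RNA fragments over 200 bases, had an r of 0.03 and a rho of −0.01 with ACTA1 (permutation p = 0.937 and 0.989). Total counts had an r of −0.53 and a rho of −0.45 (permutation p = 0.0815 and 0.164), and age an r of 0.00 and a rho of −0.01 (permutation p = 0.996 and 0.971).

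Further skeletal muscle genes, on a list of 52 of which 48 were found, were measured beside the members. Of these 13 passed the filter and 4 were “down” in HGA by edgeR with none “up”, where 12.5% of all genes tested were “down”. With no filter 9 of 48 were “down”, where 8.39% of all genes were. CHRNE, the adult subunit of the acetylcholine receptor at the nerve-muscle junction, had a log2FC of −2.86 (SE 0.32) and PPP1R27 of −3.94 (SE 0.71). TMEM38A, a potassium channel of the calcium store, had a log2FC of −1.95 (SE 0.30) and HRC, a calcium-binding protein of that store, of −1.58 (SE 0.34). CHRNE measured 81.2 CPM on average in the metastases, and 93.4 ± 24.2 (SD, n = 11) in primary AGASAC, and had an r of −0.04 and a rho of 0.07 with ACTA1 (permutation p = 0.92 and 0.839). PPP1R27, TMEM38A and HRC had an r of 0.24, 0.49 and 0.42 with ACTA1 (permutation p = 0.468, 0.128 and 0.198). Their rho was 0.22, 0.38 and 0.38 (permutation p = 0.518, 0.25 and 0.246). TMEM38A measured 16.6 CPM on average in the metastases and 10.0 in primary AGASAC. Of the 33 genes of this list that could be compared, 9 reached 0.7 with ACTA1 in both measures.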

How the data were processed

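QuantSeq 3′ libraries were made from total RNA of 25 FFPE samples of canine tumors. The authors trimmed reads with cutadapt, aligned them to CanFam3.1 with STAR and counted them per gene with 2 rounds of featureCounts, the second on an annotation extended at the 3′ end, sharing a multi-mapped read evenly between its locations. Versions and the strand setting of the counting are not given in the sources used here, so that overlapping genes could share reads. The deposited counts are raw. The same table holds a signal that the authors made by dividing the counts by size factors, and the deposited log2 fold changes with standard errors and p-values of the authors' own DESeq2 comparison, none of which were used. No per-sample column was left without a sample (0 columns).

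The analysis used edgeR 4.0.16 (R 4.3.3) on the raw counts: filterByExpr (minimum count 10, minimum total 15), TMM factors and the quasi-likelihood test on the 21 primary tumors, or on the 4 metastases and the primary tumors of the same 4 dogs. A call needed a Benjamini-Yekutieli adjusted p not above 0.05 and a log2FC of 1 or more in size. The edgeR log2FC is the value returned with the default prior count. Its SE is the size of the log2FC divided by the square root of the F statistic. DESeq2 1.42.0 (Wald test) was an alternative, beside RLE factors, library size alone, other filters, all AGASAC samples, Benjamini-Hochberg adjustment, extraction batch and each tumor left out. Levels are CPM with TMM factors over 25 samples, and log scales used a pseudocount of 1. The scripts' tests were checked on simulated counts. Tumors of a type are numbered as separate samples, and p-values measure the spread between them. Metastasis and primary tumor of a dog share the animal by the labels, and the correlation of their deviations from the group means over genes was 0.425 to 0.723 in the 4 dogs. A chi-square comparison of the samples of each group found 0 duplicates. The extraction batch was taken from the study's RNA quality records. The members and lists were chosen with earlier results of these data known. Named genes are the members called, the 4 members of each list with the highest mean CPM, the 5 regulators and both developmental myosins, 29 in all, and others were named after their values were seen. Gene names are those of the table, and all 52 members matched RefSeq symbols of UU_Cfam_GSD_1.0, whose coordinates were not used.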

Additional observations from a re-analysis of the deposited data

Results flagged for a closer look

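Among 40 sets of values, each a gene or summed list in HGA or the metastases, 4 had a sample far from the rest of its group. For normally distributed values chance gives about 1 in 20. Some of these sets held repeated values of 0, so the rate by chance is not known here. MYLPF was 4.11 CPM (10 counts) in HGA 8 against 1.09 in the next HGA, and TNNI1 was 7.39 CPM (18 counts) in HGA 8 against 1.52. TNNI2 was 4.79 CPM (15 counts) in metastasis 4 and 0 in the other metastases. HSPB6 was low in HGA 10, with 8.17 CPM (19 counts) against 39.3 in the next HGA.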

How the results depend on the processing

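Between HGA and primary AGASAC, 4 members were called, and the count was 22 with DESeq2, 21 with no filter, 20 with at least 10 counts in 3 tumors and 7 with all 15 AGASAC samples. It was 3 to 8 when single tumors were left out, with 7 or 8 without HGA 2, 3, 4, 5, 6, 7, 9 or 10, where 10 to 13 members passed the filter. It was 0 within extraction batch 5 and 0 within batch 8. The wider filters tested 38 to 52 members in place of 8. RLE factors, library size alone, Benjamini-Hochberg adjustment and no limit on log2FC left the count at 5 and the batch term at 3. With library size alone 2156 genes were lower and 1053 higher in HGA, where 1509 and 1523 were with TMM, as the median log2FC of all genes moved from −0.03 to −0.33. TPM3 (−0.99) passed the fold limit with DESeq2, RLE factors, library size alone, no filter and in 8 fits with a tumor left out. TRIM63 failed the filter when any of 10 of the primary tumors was left out. Of 244 refits of named genes 221 kept their call, 9 lost it, 14 gained it and 0 changed direction.

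Between metastases and primary AGASAC, 0 members were called, 1 with the dog as a replicate block and 4 with DESeq2. Leaving out single samples gave 0 to 0. Of 150 refits of named genes 8 changed direction, all in genes not called. TPM3 (log2FC 0.06) became −0.31 against all 11 primary tumors and was −0.023 to 0.18 with single samples left out, below 0 without metastasis 3 or 4. ENO3 (0.17) became −0.87 against all 11 and was −0.11 to 0.59, below 0 without metastasis 1 or 3. FBXO32 (0.21) was −0.080 to 0.49, below 0 without AGASAC 3 or metastasis 2.

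Without TPM3 the slow fiber sum was 8.22 in place of 56.3 CPM in HGA, 34.1 in place of 132 in primary AGASAC and 1.81 in place of 81.2 in the metastases. The other changes of sums with RLE factors or library size alone were below the SD of the group. Except where stated, the cause of these changes was not tested.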
